A study of Mus musculus with 2 samples.

Results

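Mature Paneth cells were taken as the cells that the authors' cell table calls PANETH, matched by barcode to the raw matrices. They numbered 218 of 5305 listed cells in replicate 1 and 392 of 6257 in replicate 2, or 610 of 11562 in all. Both libraries were labelled WT (wild type) and came from the ileum crypts of Atoh1CreER-T2;R26RTom mice. In these mice a tamoxifen-activated Cre expressed from Atoh1 switches on the red fluorescent protein Tom. The mice had received 2 intraperitoneal doses of 1 mg/mL tamoxifen 24 h apart, and live Tom+ crypt cells were sorted 12 h after the second dose. Because Atoh1 drives the Cre, the sort holds cells that express Atoh1 and their offspring, so shares of cells describe the sort and not the crypt. There was 1 group of 2 libraries. The labels do not say that they came from separate animals, and neither age nor sex was found in the labels, so spreads between the libraries may be technical. Cells were profiled with 10x Genomics 3′ chemistry, which counts each captured transcript end once as a unique molecular identifier (UMI).

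Paneth cells sit at the base of small intestinal crypts between the stem cells. They make large granules of antimicrobial proteins, chiefly alpha-defensins (called cryptdins in the mouse) and lysozyme, and release them into the crypt lumen. They also give neighbouring stem cells Wnt3, Egf and Notch ligands, arise from Atoh1-dependent secretory progenitors, and need Wnt signalling and Sox9 to mature.

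Sequencing depth was 66021021 UMIs for replicate 1 and 40869800 for replicate 2, all barcodes counted. PANETH cells had the most UMIs of the 12 classes, with a median of 23375 in replicate 1 and 12874 in replicate 2, against 6600 and 4342.5 in PANETH-PRE, the authors' Paneth precursor class. They did not have the most genes: the medians were 1862.5 and 1369 in PANETH, and 2006 and 1512 in PANETH-PRE. One PANETH barcode occurred in both libraries, of 12 listed barcodes that did. PANETH was 4.11% of listed cells in replicate 1 (exact 95% interval 3.59% to 4.68%) and 6.26% in replicate 2 (5.68% to 6.89%), with a mean of 5.19% ± 1.52 (SD, n = 2). The intervals cover counting error only and did not overlap.

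Marker levels describe the class and cannot test its label, since the authors drew the classes from the same expression values. Lyz1, which encodes the lysozyme of Paneth granules, gave a mean of 762 UMIs per PANETH cell in replicate 1 and 337 in replicate 2. PANETH-PRE had 127 and 101, and the 10 remaining classes had 1.55 to 6.17. Defa24, an alpha-defensin, gave 5833 and 3683 UMIs per PANETH cell, against 1108 and 614 in PANETH-PRE and 14.8 to 48.6 in the remaining classes. Clps, which encodes colipase, the cofactor of pancreatic lipase, gave 69.7 and 88.2 UMIs per PANETH cell, against 10.2 and 9.56 in PANETH-PRE and 0.111 to 1.04 elsewhere. For all 3 markers both PANETH values lay above every value of the other 11 classes. Of markers of other cells, none of 6 stromal genes had a UMI in PANETH. Of 8 immune genes, 3 had UMIs, and Ptprc, Cd3e, Cd3g, Cd79a and Csf1r were at 0. Summed tuft markers stood at 1.46 and 3.30 CPM (UMIs per class scaled to a common total, before any other factor), and enteroendocrine markers at 37.4 and 49.8 CPM. The 7 goblet markers summed to 13939 and 32387 CPM, chiefly through Spink4, at 10268 and 26731, a level above the 404 and 670 CPM that free RNA could bring at most. The authors' treatment of doublets is not given in these sources, and no doublet caller was run.

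Free RNA was read from barcodes with at most 50 UMIs. Antimicrobial genes made up 13.9% of it in replicate 1 and 23.6% in replicate 2, so it carries Paneth transcripts into every droplet. It could make up at most 2.49% and 3.94% of the PANETH UMIs. Low defensin counts in the other classes were therefore not read as expression there. In GOBLET-PRE, the authors' goblet precursor class, free RNA could make up at most 4.45% and 6.33% of UMIs. Defa24 stood there at 16.2% and 13.4% of its level in free RNA. The source of these UMIs was not tested.

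Secreted antimicrobial genes took most of the transcripts of a PANETH cell. They made up 81.2% of PANETH UMIs in replicate 1 and 76.8% in replicate 2, with a mean of 79.0% ± 3.13 (SD, n = 2). In PANETH-PRE the shares were 30.3% and 28.4%, and in the remaining classes 1.52% to 4.35%. Alpha-defensins alone made up 71.9% and 65.4% of PANETH UMIs, and the 4 most abundant genes 59.9% and 52.7%. Outside these genes the median PANETH cell had 4404 UMIs in replicate 1 and 3037 in replicate 2, within the range of the other classes. The share per cell in PANETH-PRE spread widely, from a 10th percentile of 2.25% to a 90th of 61.7% in replicate 1. In PANETH the same percentiles were 57.2% and 86.8%.

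**Figure D1:**
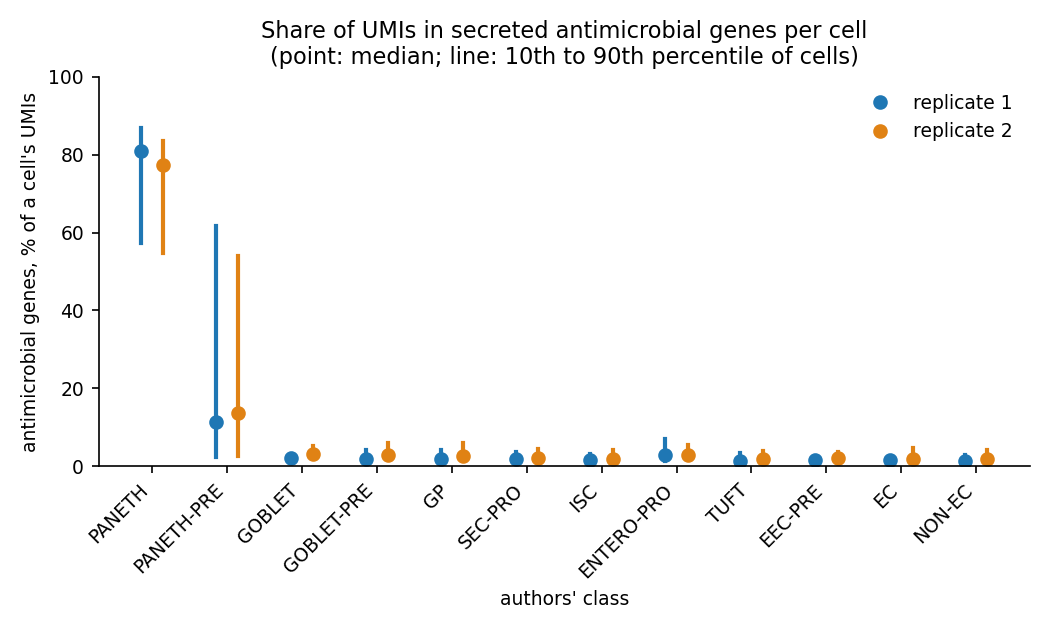
Secreted antimicrobial genes as a percentage of each cell's UMIs (y axis), by authors' class (x axis) and library (colour). Points are medians over cells and lines run from the 10th to the 90th percentile; the PANETH medians were 80.9% and 77.4%, those of PANETH-PRE 11.3% and 13.6%.

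UMIs summed per class and library were compared with edgeR's quasi-likelihood test over 10994 genes, with class and library as terms. Differences are log2 fold differences ± standard error over 24 sums, 2 per class. A gene was called where its Benjamini-Hochberg adjusted p was under 0.05 and both libraries had the same direction. The authors drew the classes from the same expression values, so the calls describe the class and are no independent test, and their p-values are not given. By this rule and a difference of at least 2-fold against each of the other 11 classes, 73 genes (0.664%) were higher in PANETH and 1 (0.0091%) was lower. Of the 73, 21 were alpha-defensins, 6 were other antimicrobial genes and 46 were neither. PANETH-PRE was the class nearest in level for 63 of them. Ell2 at 1.06, Fzd9 at 1.01 and Ninj1 at 1.00 lay just inside the fold limit in their smallest log2 difference, and Ppp1r15a at 0.97, Fth1 at 0.96 and Habp2 at 0.94 just outside.

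Alpha-defensins are short cationic peptides that Paneth cells make as precursors and that the protease Mmp7 cuts to the active form in the mouse. The annotation held 28 genes of the family, and 22 passed the filter on low counts, which the PANETH sums alone could let them pass. All 22 lay on chromosome 8 between 21025545 and 21735471 (mm10). Against PANETH-PRE, 21 of the 22 were called higher and AY761184 was not, beside 5.3% of all genes called higher. Gm14851, a defensin-family gene without a symbol of its own, had the widest gap, at 661 and 503 UMIs per PANETH cell and 12.7 and 17.7 per PANETH-PRE cell. Its log2 difference was 5.69 ± 0.54. Defa21 had 2260 and 654 UMIs per PANETH cell and 60.9 and 23.9 per PANETH-PRE cell, a log2 difference of 5.40 ± 0.43. Defa22 had 2319 and 817 against 83.6 and 46.5, with 4.89 ± 0.45. In these 3 genes both PANETH values lay far above both PANETH-PRE values, while replicate 1 exceeded replicate 2 in PANETH. Defa30 had 2735 and 1776 UMIs per PANETH cell against 187 and 122, with a log2 difference of 4.23 ± 0.53. Defa24 was already abundant in PANETH-PRE, and its log2 difference was 2.83 ± 0.49. AY761184 had 346 and 276 UMIs per PANETH cell against 149 and 87.5 in PANETH-PRE, a log2 difference of 1.74 ± 0.60.

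The make-up of the defensin pool differed between the 2 classes. Defa24 took 37.0% and 42.8% of alpha-defensin UMIs in PANETH and 58.9% and 57.1% in PANETH-PRE. AY761184 took 2.20% and 3.21% in PANETH and 7.93% and 8.13% in PANETH-PRE, and Defa17 took 1.57% and 2.68% against 5.77% and 6.99%. Gm14851 moved the other way, with 4.19% and 5.84% in PANETH against 0.677% and 1.65% in PANETH-PRE. For all 4 genes the PANETH and PANETH-PRE values of the 2 libraries did not overlap. The libraries differed as well. Defa21 was 14.3% of the PANETH defensin UMIs in replicate 1 and 7.59% in replicate 2, 1.89 times as much, and Defa34 and Defa32 were 2.08 and 2.27 times as much in replicate 1. Defa17 was 0.586 times as much in replicate 1. For Defa21 the order was the same in PANETH-PRE (3.24% and 2.23%), in the ISC class of stem cells (13.3% and 7.24%) and in free RNA (12.6% and 7.41%). With 1 library on each side this difference has no replicate check. Near-identical copies may also share or lose reads: over the last 200 bases of the transcripts, where 3′ reads fall, Defa21 and Defa22 were 98.5% identical, Defa30 and Defa24 97.5%, and Defa23 and Defa31 100%. The counting of reads that map to several genes is not given in these sources, so levels of single members are uncertain. Gm14851 was at most 52.4% identical to any other member.

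**Figure D2:**
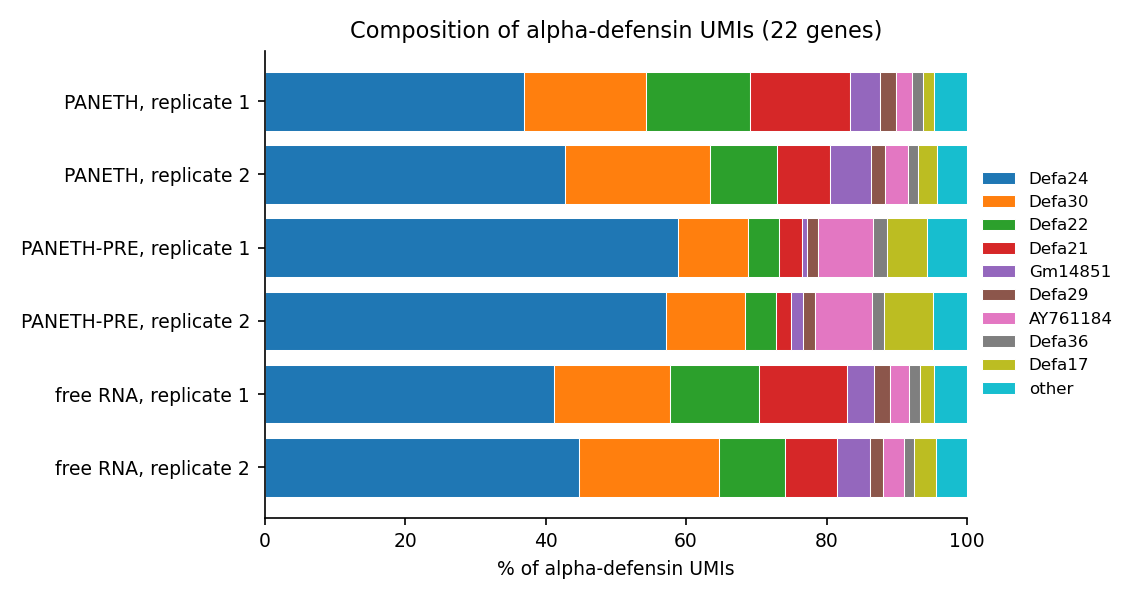
Percentage of alpha-defensin UMIs (x axis) held by the 9 most abundant genes and by the other members together (colours), in PANETH, PANETH-PRE and free RNA of each library. Defa24 takes 37.0% and 42.8% in PANETH and 58.9% and 57.1% in PANETH-PRE, and Defa21 and Defa22 are wider in replicate 1.

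Because these genes are high together, the sequence before their starts is shown for 3 of them. Promoters came from the RefSeq table of build GRCm38.p6, in which 9 of the 22 tested defensins had an entry. The window of 250 bases before the start was searched on both strands for CTTTGAT, a core site of the TCF/LEF factors that act in Wnt signalling. It is printed in capitals, in either orientation. The stretch shown ends before the start of the gene in both RefSeq and GENCODE. Defa21 and Defa22 have the same 250 bases, so 1 sequence stands for both.
Defa21, chr8:21025295-21025544, plus strand: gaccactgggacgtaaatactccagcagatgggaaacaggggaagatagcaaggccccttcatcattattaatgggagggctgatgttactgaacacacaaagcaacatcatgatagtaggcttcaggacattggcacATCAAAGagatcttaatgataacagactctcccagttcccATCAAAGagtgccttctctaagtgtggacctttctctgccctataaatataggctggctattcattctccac
Defa30, chr8:21134400-21134641, plus strand: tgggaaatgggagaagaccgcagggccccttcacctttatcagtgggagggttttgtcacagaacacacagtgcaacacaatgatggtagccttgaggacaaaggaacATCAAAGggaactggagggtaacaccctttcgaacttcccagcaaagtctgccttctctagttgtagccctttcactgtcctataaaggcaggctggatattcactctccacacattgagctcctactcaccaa
Defa35, chr8:21064788-21065037, plus strand: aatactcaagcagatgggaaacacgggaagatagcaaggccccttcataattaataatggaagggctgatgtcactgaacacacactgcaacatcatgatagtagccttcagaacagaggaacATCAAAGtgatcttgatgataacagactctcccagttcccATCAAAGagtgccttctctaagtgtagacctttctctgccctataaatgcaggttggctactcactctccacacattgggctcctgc
All 9 defensin promoters held CTTTGAT, against 3.21% of 32851 promoters in the table and 2 of 47 promoters (42 genes) of the other genes higher in PANETH than in every class, those of Lamp2 and Reg3g. The 9 are relatives and not independent: Defa21 and Defa20 were 98.0% identical, Defa21 and Defa35 80.8%, and Defa21 and Defa30 61.8%. TATAAA, searched on the gene's strand, lay in 8 of the 9 and in 7.59% of all promoters. TGATGCAA, a composite C/EBP-ATF site searched on both strands, lay in none of the 9, in 3 of the 47 (Nupr1, Pycr1 and Gm32742) and in 0.791% of all. A match describes the letters only.

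Of 18 other secreted antimicrobials tested, from a list of 26, 7 were called higher than in PANETH-PRE and 2 lower, beside 5.3% and 2.79% of all genes. Ang4, an angiogenin-family ribonuclease with microbicidal activity, had 341 and 348 UMIs per PANETH cell and 27.6 and 52.7 per PANETH-PRE cell, a log2 difference of 3.66 ± 0.41. Mptx2, a mucosal pentraxin, had 143 and 110 against 11.6 and 22.8, with 3.35 ± 0.39. Both lost their call without the library term. Itln1, a lectin that binds microbial glycans, had 708 and 612 against 181 and 134, with 2.42 ± 0.56. Lyz1 had a log2 difference of 2.59 ± 0.40 and Reg3g, a C-type lectin active against Gram-positive bacteria, one of 2.68 ± 0.33. In each of these 5 genes both PANETH values lay above both PANETH-PRE values. Rnase1, a secreted ribonuclease, went the other way, with 0.261 and 0.689 UMIs per PANETH cell against 4.92 and 3.79 per PANETH-PRE cell, a log2 difference of -2.80 ± 0.31. Ang, a relative of Ang4, was also lower, at -0.52 ± 0.12. Among the ribonucleases of this family, then, Ang4 was higher and Rnase1 and Ang were lower in the mature class.

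Of 19 tested granule proteases, inhibitors and lipid-digesting enzymes, 5 were called higher than in PANETH-PRE and 2 lower, beside 5.3% and 2.79% of all genes. Mmp7 was high in both classes, with 51.6 and 38.7 UMIs per PANETH cell and 42.0 and 32.5 per PANETH-PRE cell. Its log2 difference of 0.64 ± 0.28 was not called. Clps had a difference of 3.30 ± 0.47 and Pnliprp2, a pancreatic lipase-related enzyme, of 3.07 ± 0.34, with 24.0 and 30.2 UMIs per PANETH cell against 3.90 and 4.41. Within PANETH both were higher per cell in replicate 2 than in replicate 1, and both lost their call without the library term. Pancreatic contamination was read from 4 acinar markers, of which Amy2a1, Prss2 and Ctrb1 were at 0 in PANETH. The fourth, the elastase gene Cela1, had 7.53 and 6.01 CPM in PANETH before scaling, or 0.165 and 0.0791 UMIs per cell. Free RNA held it at 7.45 and 17.1 CPM but could make up at most 2.49% and 3.94% of PANETH UMIs. It could thus bring only a small part of the Cela1 level in PANETH. The source of the Cela1 UMIs was not tested. Habp2, a secreted serine protease, had a difference of 0.94 ± 0.12.

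Among the 46 genes that were neither defensins nor other antimicrobials, Sntb1, Ces1c and C4bp had the widest gaps to the nearest class. CPM are from here on scaled by edgeR's TMM factors, which take out the room that antimicrobial transcripts occupy. Sntb1, a syntrophin of the dystrophin complex, had 47.6 ± 6.23 CPM in PANETH and 3.53 ± 0.101 in PANETH-PRE (SD, n = 2), a log2 difference of 3.73 ± 0.46. Ces1c, a carboxylesterase, had 62.8 ± 2.93 against 2.49 ± 1.57 in PANETH-PRE, where it had few UMIs, with 4.64 ± 0.44. The class nearest to PANETH for Ces1c was GOBLET-PRE, with a log2 difference of 3.56. C4bp, the complement C4 binding protein, had 110 ± 43.7 against 10.2 ± 1.21, with 3.40 ± 0.27. Nupr1, a stress-induced chromatin protein, had 3201 ± 172 against 505 ± 71.9, with 2.67 ± 0.11, and was higher per cell in both libraries (16.7 and 10.4 against 2.90 and 2.44 UMIs). In none of these 4 genes did the PANETH and PANETH-PRE libraries overlap.

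Against PANETH-PRE, 583 genes (5.3%) were called higher in PANETH and 307 (2.79%) lower, around a median log2 difference over all genes of 0.09. Without the library term the counts were 197 and 86. Some genes named here kept their direction but were not called without that term. They included Ang, Ang4, Mptx2, Defa17, Defa34, Clps, Pnliprp2, Wnt3, Hbegf, Ccnd2, Pdia4, Lgmn, Rab3d, Rps27l, Ier2 and Zfp36. This enumeration does not cover every member of the gene lists named below. With TMM factors over all genes the counts were 442 and 358, so the higher genes made up 55.25% of calls instead of 65.5%. With cells thinned to 2000 UMIs each, of which most are antimicrobial in PANETH, they were 164 and 146.

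Several secreted and membrane proteins were lower in PANETH than in its precursor class. Cd177, a surface glycoprotein best known from neutrophils, had 57.0 ± 22.4 CPM against 317 ± 31.1, a log2 difference of -2.47 ± 0.16. Ccl9, a chemokine, had 170 ± 14.1 against 822 ± 60.8, with -2.31 ± 0.27. Pla2g10, a secreted phospholipase, had 15.5 ± 3.83 against 63.1 ± 6.68, with -1.99 ± 0.31. Per cell these 3 genes were lower in PANETH in both libraries, as the plot of UMIs per cell shows for Cd177 and Ccl9. Tpsg1 and Klk1, both secreted or membrane serine proteases, had differences of -1.69 ± 0.26 and -1.55 ± 0.19, Cd81, a tetraspanin, one of -1.56 ± 0.21, and Pdia5, a protein disulfide isomerase outside the lists below, had 69.6 ± 6.72 CPM against 223 ± 39.5, with -1.69 ± 0.27.

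**Figure D3:**
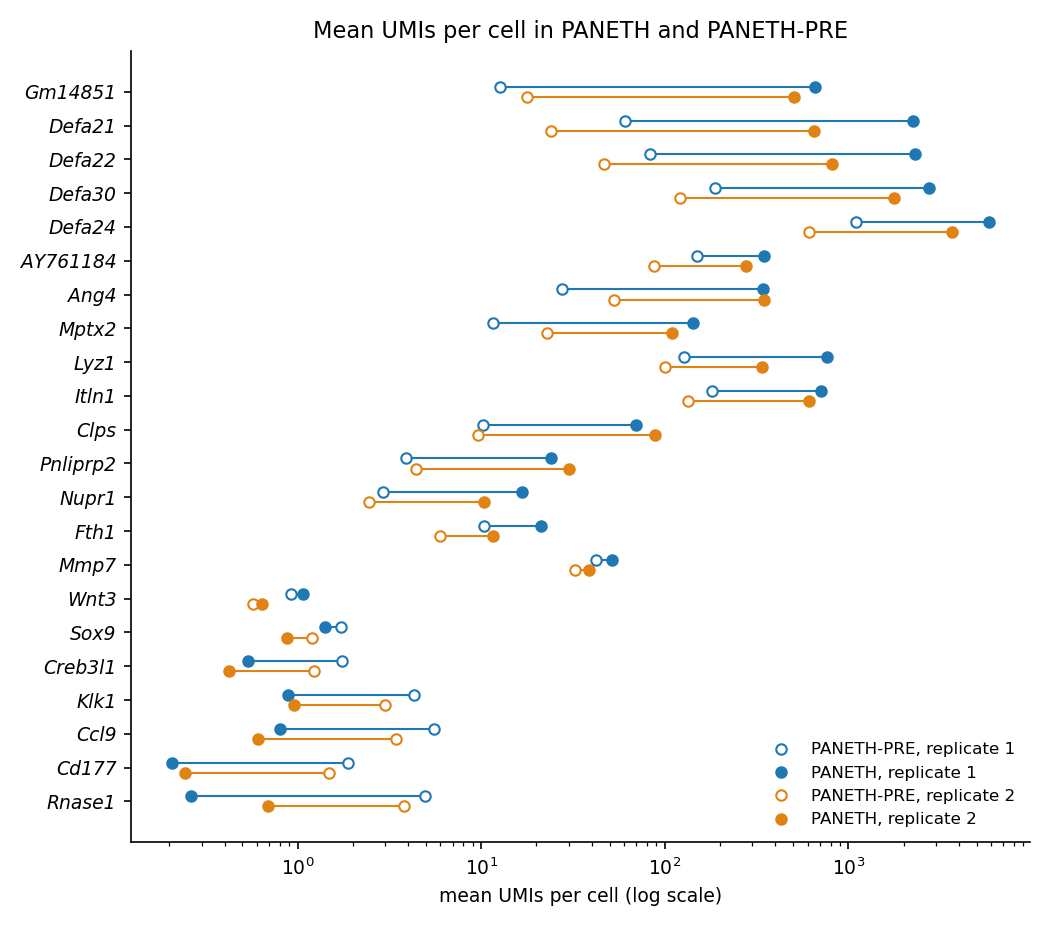
Mean UMIs per cell (x axis, log scale) of 22 genes (y axis) in PANETH (filled) and PANETH-PRE (open) of each library (colour). Defensins, Ang4, Mptx2, Clps and Nupr1 are far to the right in PANETH in both libraries, Mmp7, Wnt3 and Sox9 lie close together, and Rnase1, Cd177 and Ccl9 lie to the left.

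The genes of the secretory machinery were high in both Paneth classes and split between them. Against ISC, 34 of 38 tested genes of ER folding and the unfolded protein response were called higher and none lower, with a median log2 difference of 1.61, beside 24.4% of all genes higher, 23.2% lower and an all-gene median of -0.03. Against PANETH-PRE, 12 were called higher and 8 lower, beside 5.3% and 2.79% of all genes. The 8 lower genes were chaperones and oxidoreductases of the ER lumen and the sensor Ern2. Pdia4, a protein disulfide isomerase, had 106 ± 16.8 CPM in PANETH and 215 ± 18.2 in PANETH-PRE, with a log2 difference of -1.04 ± 0.17. Pdia3 had -0.93 ± 0.10, Hsp90b1 -0.78 ± 0.09 and Calr -0.66 ± 0.10. The 12 higher genes included factors of ER-associated degradation and of the stress response. Herpud1 had 478 ± 22.7 CPM against 265 ± 7.9 and a difference of 0.85 ± 0.12, Sel1l one of 0.68 ± 0.14, Ppp1r15a one of 0.99 ± 0.17 and Ddit3 one of 0.81 ± 0.19. Without the library term 3 of the 38 were called higher and 3 lower. Not every higher gene named here can therefore have kept its call. Xbp1, the transcription factor of the secretory stress response, had 364 ± 94.2 CPM against 314 ± 58.0 and was not called, at 0.21 ± 0.12.

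Of 48 genes of protein translocation and ER to Golgi transport, 44 were called higher than in ISC and none lower, beside 24.4% and 23.2% of all genes. Against PANETH-PRE 10 were higher and 2 lower, beside 5.3% and 2.79% of all genes. Tmed6, a cargo receptor, had 397 ± 56.7 CPM against 139 ± 29.0, with 1.52 ± 0.13, and Copz2, a coat protein of COPI vesicles, 140 ± 10.7 against 49.0 ± 7.09, with 1.52 ± 0.17. Both were among the genes higher than in every other class. The translocon-associated proteins Ssr1 and Ssr2 were lower, at -0.72 ± 0.12 and -1.01 ± 0.11. Of 29 genes of regulated secretion, the granule GTPase gene Rab3d (0.49 ± 0.13) and the SNARE gene Vamp8 (0.75 ± 0.14) were higher than in PANETH-PRE and none was lower, a share near the 5.3% and 2.79% of all genes. Against GOBLET none of the 29 was higher and 11 were lower, beside 8.55% and 10.2% of all genes.

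Autophagy genes are known from Paneth cells because loss of Atg16l1, Atg5 or Atg7 disturbs their granules. Of 31 tested autophagy and pattern-recognition genes, 6 were higher than in PANETH-PRE and none lower, beside 5.3% and 2.79% of all genes. Without the library term 4 were higher, and with thinned cells 1 of 21. Atg7, which activates the conjugation of LC3, had 109 ± 2.50 CPM against 44.9 ± 5.78, with 1.27 ± 0.18, and was among the genes higher than in every other class. Map1lc3a, an LC3 gene, had 1.30 ± 0.26, and Sqstm1, a cargo receptor, 1.13 ± 0.16. Of 28 lysosomal genes, 7 were higher and 1 lower; without the library term 4 were higher and none lower, and with thinned cells 2 of 22 were higher. Lgmn, an asparaginyl protease, had 88.3 ± 57.3 CPM against 29.9 ± 10.6, with 1.54 ± 0.21, Ctsl 1.62 ± 0.23, Lamp1 1.27 ± 0.12 and Lamp2 1.19 ± 0.12.

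Zinc is stored in Paneth granules. Of 23 genes of zinc and metal handling, 4 were higher than in PANETH-PRE and none lower, beside 5.3% and 2.79% of all genes. The list covers other metals as well, so this count is not one of zinc genes alone. Slc30a2, a zinc exporter of secretory vesicles, had 84.0 ± 1.32 CPM in PANETH, 38.2 ± 5.09 in PANETH-PRE and 4.00 ± 0.817 in ISC. The difference from PANETH-PRE was 1.13 ± 0.20, and it was higher than in every other class. The ferritin genes Fth1 and Ftl1 were higher at 1.36 ± 0.09 and 0.96 ± 0.09.

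Transcripts of cytosolic ribosomal proteins were lower. Of 80 tested, 62 were called lower than in PANETH-PRE and 1 higher, beside 2.79% and 5.3% of all genes, with a median of -0.45. Against ISC 76 were lower and 1 higher, beside 23.2% and 24.4% of all genes, with a median of -0.71. Rps15a, for instance, had 1157 ± 62.2 CPM in PANETH, 1923 ± 297 in PANETH-PRE and 2309 ± 355 in ISC. The 1 higher gene, Rps27l, a p53-responsive relative of Rps27, had 0.54 ± 0.10 against PANETH-PRE. Without the library term 12 were lower than in PANETH-PRE and none higher. Against GOBLET, the mature goblet class, the direction was the opposite. There 76 of 80 were higher and none lower, beside 8.55% and 10.2% of all genes, with a median of 1.13. Of 13 transcripts of the mitochondrial genome, 10 were higher than in PANETH-PRE and none lower, with a median of 0.53. As a share of all UMIs they were lower, with a median per cell of 0.994% and 0.859% in PANETH and 2.97% and 2.72% in PANETH-PRE, because the antimicrobial transcripts are in the denominator. Listed cells had under 7 percent mitochondrial UMIs of that same total. This limit allowed PANETH cells more mitochondrial UMIs per UMI outside the antimicrobial genes than PANETH-PRE cells. Its part in the scaled levels was not tested. Nuclear genes of oxidative phosphorylation did not follow the mitochondrial transcripts. Against PANETH-PRE 2 of 36 were higher, a share near the 5.3% of all genes, and none was lower. Against ISC 34 of 36 were lower, beside 23.2% of all genes.

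The niche signals of Paneth cells were present in both Paneth classes. Wnt3, the Wnt ligand of the crypt base epithelium, had 1.06 and 0.638 UMIs per PANETH cell, 0.916 and 0.573 per PANETH-PRE cell and 0.0217 and 0.0299 per ISC cell. EEC-PRE, the enteroendocrine precursor class, stood next with 0.421 and 0.247. The log2 difference of Wnt3 was 0.55 ± 0.14 against PANETH-PRE and 5.39 ± 0.18 against ISC; the first was not called without the library term. Egf had 14.3 ± 3.04 CPM in PANETH, 13.4 ± 2.61 in PANETH-PRE and 1.03 ± 0.0142 in ISC, and its difference from PANETH-PRE was 0.08 ± 0.42. The Notch ligand gene Dll4 had 13.8 ± 2.39 against 21.2 ± 2.39 in PANETH-PRE, which was not called, at -0.63 ± 0.33. Dll1, a second Notch ligand gene, was lower, with 15.3 ± 0.933 against 35.9 ± 8.96 CPM and -1.22 ± 0.29. Hbegf, an EGF receptor ligand gene, was lower at -1.94 ± 0.43. Of 12 tested niche ligands 1 was higher and 2 were lower than in PANETH-PRE, beside 5.3% and 2.79% of all genes.

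Of 29 tested genes of the Wnt receptor, target and Eph receptor list, 2 were higher and 1 lower than in PANETH-PRE, shares near those of all genes (5.3% and 2.79%). Lgr4, an R-spondin receptor, had 230 ± 1.53 CPM in PANETH, 130 ± 11.2 in PANETH-PRE and 63.0 ± 5.17 in ISC. Nkd1, a Wnt feedback inhibitor, had 33.8 ± 9.06 against 8.44 ± 2.75, with 1.99 ± 0.40, and Ccnd2, a cyclin, was lower at -0.94 ± 0.21. Lgr5, the stem cell R-spondin receptor, had 58.2 ± 27.5 CPM in PANETH, 54.5 ± 4.56 in PANETH-PRE and 47.8 ± 16.2 in ISC, and neither difference was called. In unscaled counts Lgr5 stood at 17.8 and 9.89 CPM in PANETH, above the 0.494 and 0.776 that free RNA could bring. Ephb3, the receptor that keeps Paneth cells at the crypt base, had 127 ± 4.90 CPM against 102 ± 11.4 in PANETH-PRE and 17.9 ± 1.96 in ISC, with 0.31 ± 0.15 and 2.82 ± 0.16.

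Of 27 tested transcription factors of the secretory lineage, 14 were higher than in ISC and 7 lower, beside 24.4% and 23.2% of all genes. The 7 lower (25.9%) were near the share of all genes. Against PANETH-PRE 2 (7.41%) were higher, near the 5.3% of all genes, namely Nupr1 and the epithelial factor gene Elf3 (0.52 ± 0.13). Another 4 (14.8%) were lower, beside 2.79% of all genes, namely Id2, Id3, Creb3l1 and Spdef. Sox9 had 271 ± 12.5 CPM in PANETH and 271 ± 4.28 in PANETH-PRE, against 108 ± 2.51 in ISC. Atoh1 had 99.2 ± 27.6 against 126 ± 30.8, with -0.36 ± 0.21, which was not called. Creb3l1, an ER-bound factor of secretory capacity, was lower with 116 ± 13.5 against 277 ± 6.44 CPM, at -1.25 ± 0.16, and Spdef, a goblet and Paneth maturation factor, was lower at -0.94 ± 0.15. Id2, an inhibitor of basic helix-loop-helix factors, was the 1 gene lower in PANETH than in every other class. It had 0.0229 and 0.0434 UMIs per PANETH cell, 0.142 and 0.117 per PANETH-PRE cell and 0.174 and 0.167 per ISC cell. Its difference from PANETH-PRE was -1.43 ± 0.34. These levels rest on few UMIs, and with thinned cells no gene was called lower than in every other class.

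Cell cycle genes were far below the stem cells. All 30 tested G2/M genes were called lower than in ISC, with a median of -2.43, beside 23.2% of all genes. Of 30 G1/S genes 29 were lower, with a median of -1.91. Against PANETH-PRE, 9 G2/M genes were higher and none lower, beside 5.3% and 2.79% of all genes. The count was 7 after free RNA was subtracted, 5 with DESeq2, 4 without the library term and 3 of 27 with thinned cells. This signal lay in few cells. Counting the 30 genes together, the median PANETH cell had 1 UMI in each library, while 12 of 218 cells (5.50%, exact 95% interval 2.88% to 9.42%) and 17 of 392 (4.34%, 2.55% to 6.85%) had 10 or more. That limit was chosen after the values were seen. These cells held 55.1% and 51% of the class's G2/M UMIs. Of PANETH-PRE cells, 4 of 226 (1.77%) and 9 of 316 (2.85%) reached the limit, and of ISC cells 336 of 553 (60.8%) and 895 of 1739 (51.5%). The 12 and 17 cells had a median antimicrobial share of 54.7% and 37.1%, and medians of 2502 and 1963 genes, more than the class as a whole. Their median count of Olfm4, a stem cell marker, was 7.5 UMIs in replicate 1 and 0 in replicate 2, against 0 over all PANETH cells of both libraries and 7 and 3 in ISC. The part of doublets in this was not tested. Of 16 cell cycle inhibitors, 5 were higher than in PANETH-PRE and none lower, beside 5.3% and 2.79% of all genes. The 5 were Cdkn2b at 1.97 ± 0.34, Gadd45g at 1.82 ± 0.15, and Gadd45b, Cdkn1a and Btg2.

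**Figure D4:**
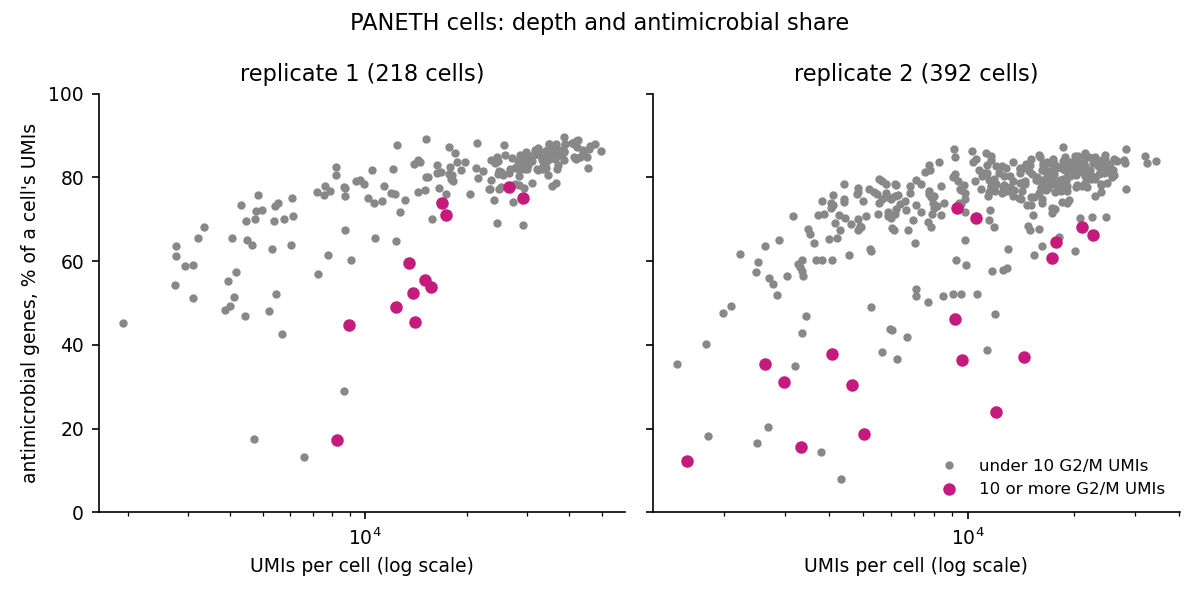
Each point is 1 PANETH cell, by UMIs per cell (x axis, log scale) and percentage of UMIs in secreted antimicrobial genes (y axis), in replicate 1 (left) and 2 (right). Cells with 10 or more UMIs of 30 G2/M genes (12 and 17 cells, large points) lie mostly low in the cloud, with median shares of 54.7% and 37.1%.

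Within the class, depth and content moved together. When the cells of replicate 1 were ranked by UMIs and put in 4 bins of 54 or 55 cells, the median antimicrobial share went from 65.1% in the lowest bin to 78.1%, 82.5% and 85.7%. In replicate 2, with 98 cells a bin, it went from 67.4% to 76.3%, 78.8% and 81.7%. The median mitochondrial share ran the other way, from 4.65% to 0.607% in replicate 1 and from 2.79% to 0.632% in replicate 2. Across cells, UMIs and antimicrobial share had a Spearman correlation of 0.809 in 218 cells and 0.672 in 392. This is a description, since both share the cell's total. Per 10000 UMIs outside the antimicrobial genes, Clps went from 44.5 in the lowest to 240 in the highest bin of replicate 1, and from 107 to 382 in replicate 2. Spink4 went from 332 to 665 and from 680 to 1429, Mmp7 from 74.7 to 153 and from 101 to 147, and Nupr1 from 25.5 to 51.1 and from 24.4 to 38.4. Tff3, a goblet trefoil peptide gene, went from 46.1 to 93.3 and from 72.4 to 118. Muc2, the gel-forming mucin, went from 61.2 to 49.6 and from 90.3 to 72.9. Wnt3 went from 2.04 to 2.55 and from 1.96 to 2.47, and Sox9 from 2.81 to 3.46 and from 2.47 to 2.55. The defensin mix moved too. Defa24 was 39.9% of alpha-defensin UMIs in the lowest and 36.0% in the highest bin of replicate 1, and 44.9% and 42.0% in replicate 2. Defa21 went from 12.5% to 15.5% and from 6.42% to 8.47%, and Defa22 from 12.9% to 15.5% and from 8.18% to 10.4%.

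Against ISC, 2683 genes (24.4%) were higher in PANETH and 2552 (23.2%) lower. Immediate-early and heat-shock genes were among the higher: 15 of 19 were higher and 1 lower, with a median of 2.52. Ier2, an early-response gene, had 546 ± 110 CPM in PANETH, 378 ± 43.6 in PANETH-PRE and 105 ± 14.3 in ISC, and Zfp36, an mRNA-decay factor gene, 216 ± 66.4, 122 ± 72.9 and 15.8 ± 2.18. Against PANETH-PRE 3 of the 19 were higher and 2 lower, beside 5.3% and 2.79% of all genes. All 7 tested MHC class II genes were lower than in ISC, with a median of -1.03, and 2 were lower than in PANETH-PRE. H2-DMa, which loads peptides onto class II molecules, had 18.2 ± 6.41 CPM in PANETH, 41.6 ± 4.80 in PANETH-PRE and 67.2 ± 16.5 in ISC. Of 27 MHC class I and interferon genes, none was called against PANETH-PRE.

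Against GOBLET, 940 genes (8.55%) were higher in PANETH and 1116 (10.2%) lower, around an all-gene median of 0.25. With TMM factors over all genes the counts were 1318 and 933 and that median 0.46, so higher genes made up 58.6% of calls instead of 45.7%. GOBLET held 42 and 84 cells, and many Paneth genes had no UMI in it. Lower in PANETH were Tpsg1, with 0.197 and 0.237 UMIs per cell against 1.40 and 1.06, Klk1, with 0.890 and 0.952 against 2.83 and 2.25, and Pla2g10, with 0.0642 and 0.0612 against 0.405 and 0.298. These 3 genes were thus lower in PANETH than in both its precursor class and the mature goblet class.

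**Figure D5:**
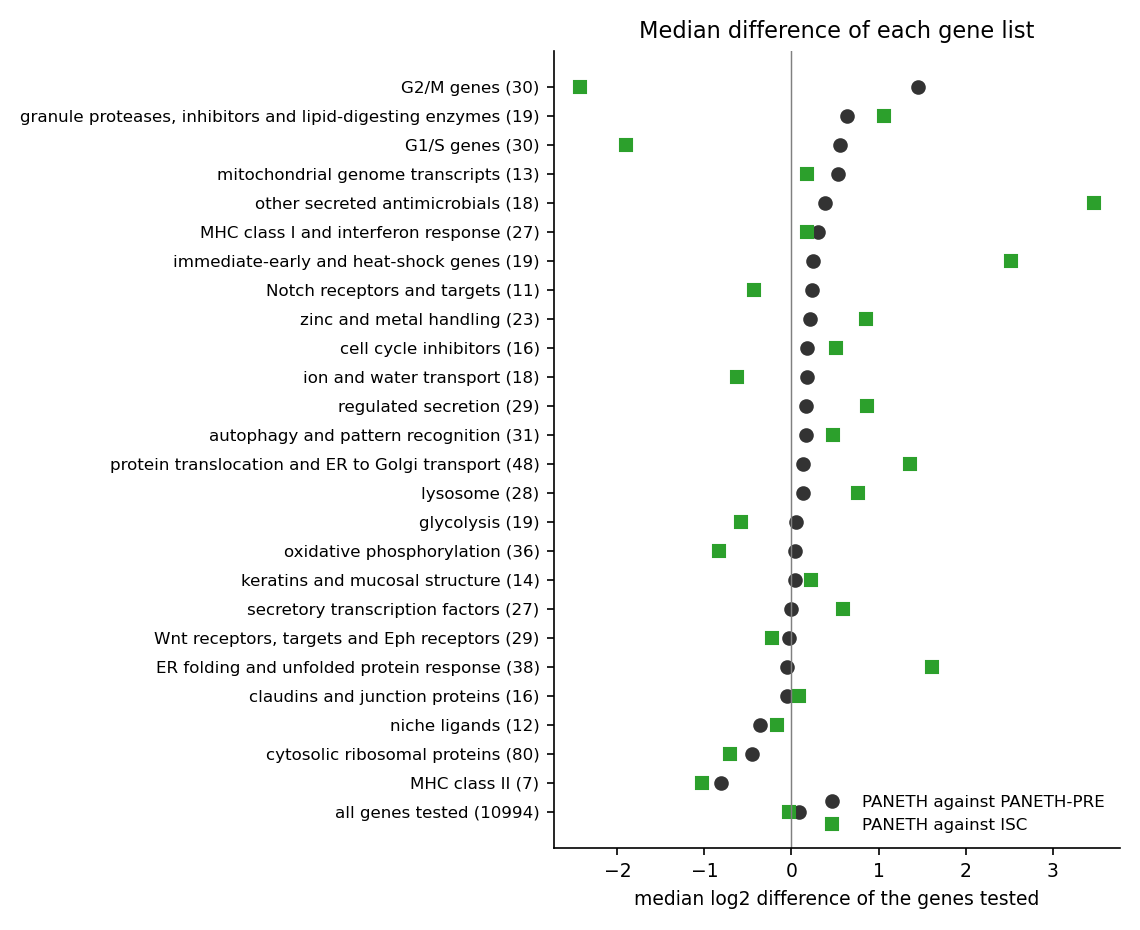
Median log2 difference (x axis) of the tested genes of each list (y axis, number of genes in parentheses) in PANETH against PANETH-PRE (circles) and ISC (squares). The secretory lists lie at 1.61 and 1.37 against ISC and near 0 against PANETH-PRE, ribosomal proteins below 0 in both; alpha-defensins, at 3.14 and 8.37, are left out.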

How the data were processed

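Sorted Tom+ ileum crypt cells were profiled in 2 libraries. Reads were processed with Cell Ranger 3.0.2 and STAR on mm10, per the submitters' processing notes. The files the authors deposited give unnormalized UMI counts for every barcode, with no cell filter. The authors' deposited cell table gives a class name, count and gene totals and a percent of mitochondrial UMIs for each cell; its listed cells had over 600 and under 3000 genes and under 7 percent mitochondrial UMIs, and the class assignment is not described in these sources. UMIs were summed over the cells of each of 12 classes in each library. The 24 sums were fitted in R 4.3.3 with edgeR 4.0.16 (filterByExpr, class and library as terms, robust quasi-likelihood). TMM factors were taken from genes whose average log2 CPM reached 6, and Benjamini-Hochberg adjustment ran over 10994 genes. Library numbers pair the class sums, since each library holds all classes. It left 11 residual degrees of freedom, and the biological coefficient of variation had a median of 0.0641. On simulated counts of 10320 genes the fit recovered 90% of 2-fold changes against PANETH-PRE, 42% against GOBLET and 95% against ISC. It called 0.109%, 0.0198% and 0.0794% of unchanged genes. In the simulation all classes shared a single profile, apart from the antimicrobial genes of PANETH and the set changes. Every gene had the same coefficient of variation, and the library effect was the same in every class. The changed genes were drawn from those above a set level. These rates need not hold for the measured counts.

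Genes named are those with the widest gaps to every class or to PANETH-PRE, GOBLET or ISC at 50 CPM or more, the extreme called members of each list, and a set of Paneth and niche genes; unnamed gene models other than defensins were left out. Some further members of the lists were named after their values were seen. A few genes that the rule picks are not reported here and are left out of the counts of named genes. The members, lists and rules were chosen with earlier results of these data known. Alternatives were DESeq2 1.42.0, other normalizations, no low-count filter, no library term, cells thinned to 2000 UMIs, the 10% of PANETH cells with the most UMIs left out, free RNA subtracted and each library alone. Free RNA was scaled to the largest share that genes of at least 1000 CPM in it allow. Gene positions came from GENCODE M21.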

Additional observations from a re-analysis of the deposited data

Results flagged for a closer look

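Barcodes that the authors' table does not list were compared with the mean profile of each class. In replicate 1, 20 of 2857 unlisted barcodes with over 600 genes were nearest to PANETH, of which 13 had 3000 or more genes and 7 were unlisted only for mitochondrial content. In replicate 2 there were 3 of 1286. The 20 were picked out because they lie outside the cells compared and exceed the 3 counts that a count of 0 allows. The same placement put 95% and 91.3% of the listed PANETH cells in PANETH, and with them 25 and 26 listed cells of other classes, more than the 20 barcodes. The listed cells also made the class profiles, so these shares do not test the placement. The 13 barcodes of replicate 1 had a median of 37051 UMIs and 3380 genes and a median antimicrobial share of 69.8%. Whether they were doublets was not tested.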

How the results depend on the processing

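Of 94 genes chosen by the naming rule and called against PANETH-PRE, 86 kept their call with DESeq2, 93 with TMM factors over all genes, 94 without the low-count filter, 92 without the PANETH cells of most UMIs, 90 after free RNA was subtracted and 65 without the replicate block (the library term); 68 of 68 kept it without antimicrobial genes. With thinned cells 60 of 87 did. Genes higher than in every other class numbered 45 with thinned cells, and 82 to 92 in single libraries by fold alone. Genes lower than in every other class numbered 0 with thinned cells, 2 without the PANETH cells of most UMIs, 12 after free RNA was subtracted and 21 to 22 in single libraries. Genes called against PANETH-PRE numbered 283 without the replicate block and 310 with thinned cells, those against GOBLET 1189 and those against ISC 2122 with thinned cells. In single libraries, where genes past 2-fold were counted with no test, the numbers were 1308 to 1548 against PANETH-PRE, 5269 to 6338 against GOBLET and 2916 to 3819 against ISC. Thinning leaves few PANETH UMIs outside the antimicrobial genes. The share of PANETH among listed cells was 4.11% to 6.26% in single libraries. It was 2.92% and 5.25% with unlisted barcodes returned, and 4.40% and 7.23% among cells with at least 2000 UMIs. The antimicrobial share of PANETH UMIs was 76.8% to 81.2% in single libraries and 74.4% as the mean of per-cell shares. Depth limits genes with few UMIs, such as Egf, whose difference had a standard error of 0.42.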

Other observations

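Some genes outside the lists were higher in PANETH than in every other class and are named here after their values were seen. Asns, asparagine synthetase, had 272 and 217 scaled CPM in PANETH and 116 and 98.8 in PANETH-PRE, and Pycr1, of proline synthesis, 90.4 and 66.0 against 31.8 and 32.4. Psat1 and Mthfd2, of serine and one-carbon metabolism, lay just under the 2-fold limit, with smallest log2 differences of 0.97 and 0.96. Ccpg1, an ER-phagy receptor gene, had 76.7 and 67.5 CPM against 25.6 and 20.2. Ggh, a lysosomal folate hydrolase, had 207 and 222 against 29.8 and 38.9, and Pglyrp1, a peptidoglycan recognition protein, 2895 and 2831 against 931 and 872. In these 5 measured pairs both PANETH libraries lay above both PANETH-PRE libraries.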
